A study of Mus musculus with 8 samples.

Results

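The galectin genes examined here (Lgals1, Lgals3, Lgals8 and Lgals9) and the gene of galectin-3-binding protein (Lgals3bp) were measured in mouse cortex after chronic cerebral hypoperfusion. These 5 genes were chosen by their symbols among the 54752 genes of the count tables, and all 5 were among the 17136 genes with enough counts to be tested. RNA was sequenced from right cerebral cortex of adult male C57BL/6 mice of WT genotype, 1 mouse to a library. A group of 4 mice had a sham operation (Sham) and another 4 had bilateral carotid artery stenosis (BCAS), in which a microcoil is wound around each common carotid artery to lower blood flow, here with a narrower coil on the right. All mice were sampled 3 weeks after surgery.

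Galectins are small lectins that bind beta-galactosides on glycoproteins and glycolipids. They are made in the cytosol, leave the cell without a signal peptide, and outside the cell cross-link glycoproteins of cell surfaces and matrix. Inside the cell, some of them gather on endosomes and lysosomes whose membrane has been torn and the sugars of the lumen exposed. In the injured brain galectin-3 is known as a product of activated microglia and macrophages. Galectin-3-binding protein is not itself a galectin. It is a secreted glycoprotein with a scavenger receptor cysteine-rich domain that galectins bind, and its gene is known as interferon-responsive.

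The promoters of Lgals9 and Lgals3bp are shown because both genes rose strongly and both windows hold the core letters of interferon-linked motifs. The sequences are from RefSeq on GRCm38.p6 (mm10), run from 250 bases before to 50 bases after the start site, and are given 5′ to 3′ on the strand of the gene. The Lgals9 window is chr11:78984875-78985174 and the Lgals3bp window is chr11:118401910-118402209, both on the minus strand. Capitals mark the matches.
Lgals9: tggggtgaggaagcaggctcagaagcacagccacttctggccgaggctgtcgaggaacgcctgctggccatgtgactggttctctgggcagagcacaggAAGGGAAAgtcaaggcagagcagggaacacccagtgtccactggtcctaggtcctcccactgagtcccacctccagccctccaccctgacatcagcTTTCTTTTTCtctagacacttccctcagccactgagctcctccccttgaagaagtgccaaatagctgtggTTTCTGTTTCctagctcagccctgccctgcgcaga
Lgals3bp: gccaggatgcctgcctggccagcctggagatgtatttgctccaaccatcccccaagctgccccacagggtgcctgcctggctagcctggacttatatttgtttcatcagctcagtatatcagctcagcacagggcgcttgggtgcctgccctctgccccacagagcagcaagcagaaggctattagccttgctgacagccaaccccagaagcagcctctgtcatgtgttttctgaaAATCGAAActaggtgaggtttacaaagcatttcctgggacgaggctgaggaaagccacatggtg

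A set of 4 motifs was searched on both strands. The first was the core of the interferon-stimulated response element (ISRE), read as GAAA, any 2 bases, GAAA. The others were the core bound by interferon regulatory factors (IRF), written AANNGAAA, which every ISRE core also holds, the STAT site GAS, written TTCNNNGAA, and the AP-1 site, written TGANTCA. The Lgals9 window held 2 ISRE cores, TTTCTTTTTC starting at position -55 and TTTCTGTTTC starting at position 15 from the start site, both reading as the motif on the other strand. It also held 1 separate IRF core, AAGGGAAA, at position -151. The Lgals3bp window held 1 IRF core, AATCGAAA, at position -14, and no ISRE core. Of 32851 mouse promoter windows of this length, 3.44% held an ISRE core, 23.9% an IRF core, 8.30% a GAS and 7.81% an AP-1 site. None of these letters were in the Lgals3 and Lgals8 windows, and Lgals1 was not in the promoter table. A match is a description of the letters and not a measured binding site.

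Library totals ranged from 16759364 to 21794435 counts, so that 0 counts in the shallowest library still leave room for 0.179 CPM (CPM, counts scaled to a library of 1000000; counting error only). Levels are given as CPM after TMM scaling of the library sizes, which evens out differences in composition between libraries. BCAS was compared with Sham with the quasi-likelihood test of edgeR and p-values adjusted by Benjamini-Hochberg over all 17136 genes. A gene was called when its adjusted p was under 0.05 and its log2 fold change was above 1 in size. By this rule 12.2% of tested genes were called, 11.0% higher and 1.28% lower in BCAS. No replicate pair agreed within sampling noise, so all 8 libraries were counted separately. Markers of microglia, astrocytes and neurons were present in every library. Choroid plexus markers summed to 781.1 CPM in Sham mouse 3 against 17.3 to 74.9 CPM in the other 7 mice. Without Sham mouse 3 the log2 fold changes of the genes described next were 1.57 for Lgals1, 7.53 for Lgals3, 4.82 for Lgals3bp, 0.81 for Lgals8 and 3.14 for Lgals9, with no call changed.

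All 5 genes were higher in BCAS than in Sham cortex, and in none did the groups overlap (18.5% of tested genes did the same). Of the 5, 4 were called, Lgals8 missing the fold threshold, and all 5 had an adjusted p under 0.05, as did 32.0% of tested genes in either direction and 19.2% in the higher direction. Lgals3, with at most 10 counts in a Sham mouse, passed the filter on low counts through its BCAS values, so its direction was fixed and it adds nothing to these counts. Of the other 4 genes, 3 were called and all 4 did not overlap. The median log2 fold change was 3.22 over the 5 genes, 2.44 without Lgals3 and -0.01 over all tested genes. The sizes differed widely, from 1.8-fold for Lgals8 to 156-fold for Lgals3. In each of the 5 genes BCAS mouse 2 was the lowest of the BCAS mice. BCAS mouse 1 was the highest in CPM, though in Lgals1 it was level with BCAS mouse 3 (31.3 and 31.1 CPM). In bulk tissue more cells of a type and more RNA per cell cannot be told apart.

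**Figure D1:**
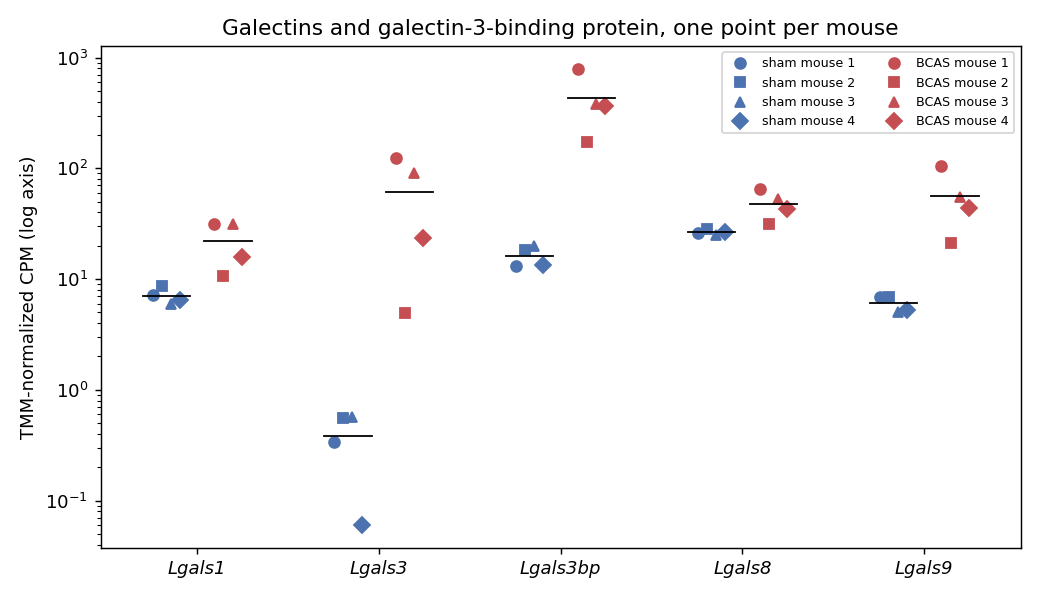
TMM-normalized CPM of the 5 genes on a log axis, with 1 point per mouse (Sham blue, BCAS red, marker shape by mouse number) and a line at the mean of each group. The BCAS points lie above all Sham points in each gene, and BCAS mouse 2 (square) is the lowest BCAS point each time.

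Lgals3 encodes galectin-3, the chimera-type galectin, whose long N-terminal tail lets it form oligomers. The gene (ENSMUSG00000050335.17) lies on the plus strand at chr14:47367751-47386160. It had 6, 9, 10 and 1 counts in Sham mice 1 to 4 and 2823, 95, 1679 and 428 counts in BCAS mice 1 to 4. This corresponded to 0.341, 0.562, 0.572 and 0.0603 CPM in Sham and 124, 4.89, 90.7 and 23.3 CPM in BCAS. The Sham cortex was thus close to the limit of detection, with Sham mouse 4 under it, while every BCAS mouse was clearly above. The mean rose from 0.384 ± 0.240 to 60.7 ± 56.1 CPM (SD, n = 4 per group). The log2 fold change was 7.28 (SE 1.14, edgeR adjusted p = 0.00375), the 14th largest of all tested genes. Because the Sham counts were so few, the size of this fold is uncertain: limma on log2(CPM + 1) gave 4.71, and limma-voom gave 6.69 with adjusted p = 0.119. The BCAS mice also varied more in Lgals3 than in the other members, with a 25.4-fold gap between the highest and the lowest.

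Lgals3bp, at chr11:118392751-118402092 on the minus strand (ENSMUSG00000033880.11), had the most counts of the set in each BCAS mouse. Its level was 13.2, 18.5, 19.9 and 13.5 CPM in Sham mice 1 to 4. In BCAS mice 1 to 4 it was 793, 174, 380 and 368 CPM, from 3370 counts in the lowest mouse to 18046 in the highest. The lowest BCAS mouse was far above the highest Sham mouse. The mean rose from 16.3 ± 3.41 to 429 ± 261 CPM (SD, n = 4 per group), with a log2 fold change of 4.72 (SE 0.45, edgeR adjusted p = 0.00146), or 26.3-fold. This was the 100th largest increase of the tested genes.

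Lgals9 encodes galectin-9, a tandem-repeat galectin with a pair of carbohydrate-binding domains and a known ligand of the receptor TIM-3, the product of Havcr2. It lies at chr11:78962974-78984946 on the minus strand (ENSMUSG00000001123.15). Its level was 6.88, 6.93, 5.03 and 5.25 CPM in Sham mice 1 to 4, and 105, 21.3, 54.9 and 43.9 CPM in BCAS mice 1 to 4. The Sham mice were close together and all BCAS mice were well above them. The mean rose from 6.02 ± 1.02 to 56.2 ± 35.3 CPM (SD, n = 4 per group), a log2 fold change of 3.22 (SE 0.44, edgeR adjusted p = 0.00254), or 9.34-fold.

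Lgals1 encodes galectin-1, a prototype galectin that acts as a dimer. It lies at chr15:78926725-78930465 on the plus strand (ENSMUSG00000068220.6). Its level was 7.16, 8.67, 5.95 and 6.52 CPM in Sham mice 1 to 4, and 31.3, 10.7, 31.1 and 16.0 CPM in BCAS mice 1 to 4. BCAS mouse 2 was only slightly above the highest Sham mouse, while mice 1 and 3 were alike and far above. The mean rose from 7.07 ± 1.18 to 22.3 ± 10.6 CPM (SD, n = 4 per group), a log2 fold change of 1.65 (SE 0.34, edgeR adjusted p = 0.00947), or 3.15-fold. The 2 processed copies in the tables, Lgals1-ps1 and Lgals1-ps2, had 0 counts in all libraries. How read pairs that align to both a gene and its copy were handled is not given in the sources used here.

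Lgals8 encodes galectin-8, the other tandem-repeat member, known to mark torn vesicles for autophagy. It lies at chr13:12439415-12464944 on the minus strand (ENSMUSG00000057554.13). Its level was 26.1, 28.5, 24.8 and 26.7 CPM in Sham mice 1 to 4, and 65.2, 31.3, 52.4 and 42.6 CPM in BCAS mice 1 to 4. The Sham mice hardly differed, and BCAS mouse 2 was again just above them. The mean rose from 26.5 ± 1.54 to 47.9 ± 14.4 CPM (SD, n = 4 per group), a log2 fold change of 0.85 (SE 0.20, edgeR adjusted p = 0.0148), or 1.8-fold. Without BCAS mouse 2 the log2 fold change was 1.02 and the gene was called. Of its exon bases, 4.20% are shared with Heatr1 on the opposite strand, and the other 4 members share none. The counting used no strand option, so pairs in those bases cannot be told apart.

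Levels of the 5 genes were also compared with each other, per length, as transcripts per 1000000 transcripts (TPM). In Sham cortex the order was Lgals1 at 33.0 ± 4.75, Lgals8 at 30.3 ± 1.30, Lgals3bp at 24.2 ± 5.47, Lgals9 at 11.8 ± 1.70 and Lgals3 at 0.873 ± 0.554 TPM (SD, n = 4). The ranges of Lgals1 and Lgals8, and of Lgals8 and Lgals3bp, overlapped, while Lgals9 and Lgals3 each lay below their upper neighbour in all 4 mice. In BCAS cortex the order was Lgals3bp at 621 ± 358, Lgals3 at 134 ± 121, Lgals9 at 108 ± 64.6, Lgals1 at 102 ± 45.7 and Lgals8 at 53.9 ± 14.5 TPM (SD, n = 4). All neighbours overlapped in range there. Within each mouse, however, Lgals3bp was above Lgals3 in 4 of 4 and Lgals1 above Lgals8 in 4 of 4, whereas Lgals3 against Lgals9 and Lgals9 against Lgals1 were split 2 of 4.

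The makeup of the summed level of the 4 galectins among the members also differed between the groups. The 4 galectins summed to 69.99 to 86.3 TPM in Sham mice and to 675, 142, 507 and 267 TPM in BCAS mice 1 to 4. Galectin-3 transcripts made up 0.192 to 1.93% of this sum in Sham and 39.7, 8.0, 39.6 and 20.1% in BCAS mice 1 to 4. The Lgals9 share went from 14.5 to 17.5% in Sham to 20.9 to 32.9% in BCAS. The shares of Lgals1 (41.2 to 46.0% in Sham, 20.6 to 35.9% in BCAS) and of Lgals8 (37.0 to 42.8% in Sham, 10.5 to 25.8% in BCAS) were smaller in all BCAS mice although both genes rose in level. These shares are parts of 1 sum and do not move independently. The sum leaves out the other galectin genes, among them Lgalsl at 94.1 to 95.98 CPM in Sham, so the shares are not of all galectin transcripts.

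**Figure D2:**
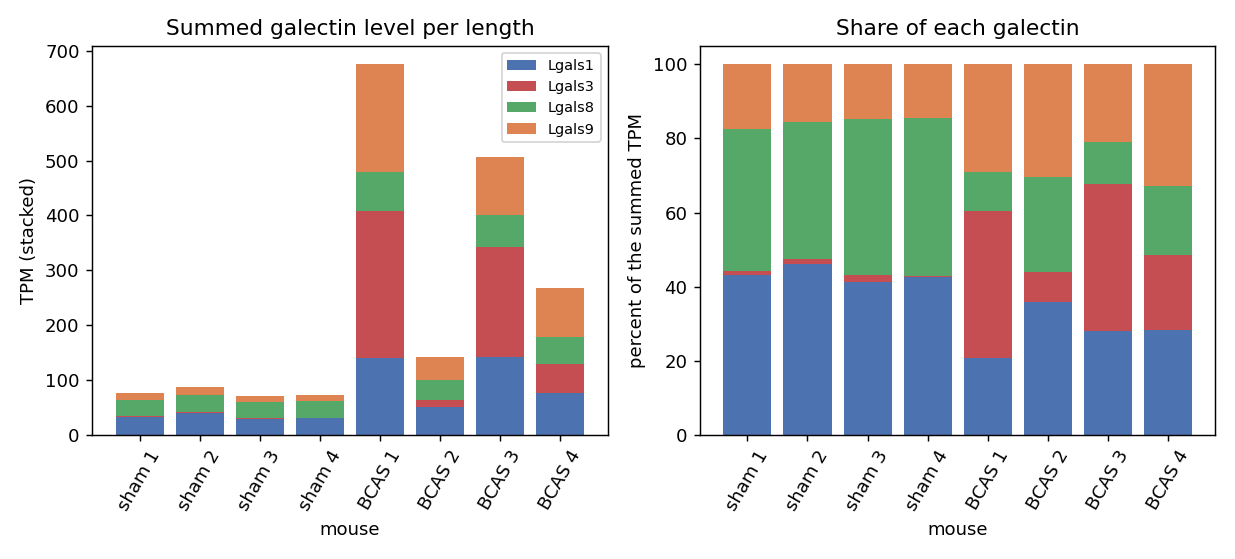
Left, TPM of the 4 galectins stacked by mouse; right, the percent each gives to their sum. The red Lgals3 segment goes from at most 1.93% in Sham mice to between 8.0 and 39.7% in BCAS mice.

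Whether the genes rose by different amounts was tested on the log2 ratio of each of the 10 pairs of genes per mouse, with an exact two-sided permutation test. The smallest p that 4 against 4 mice allow is 0.0286, and 9 of 10 pairs reached it (adjusted p = 0.0317 over the 10 pairs), among them all 6 pairs without Lgals3. The pairs with Lgals3 rest on its few Sham counts and on a direction fixed by the filter on low counts, and add nothing to this count. Without any 1 Sham mouse Lgals1 over Lgals8, and without Sham mouse 1 or 4 Lgals3 over Lgals9, no longer passed (adjusted p = 0.0635, exact permutation test). Relative to Lgals8, which rose least, the log2 ratio was higher in BCAS by 0.72 for Lgals1 and by 5.87 for Lgals3. The ratio to Lgals8 was higher by 3.74 for Lgals3bp. Lgals3bp also rose more than Lgals9, by 1.53, and this log2 ratio was nearly constant among the BCAS mice at 2.92, 3.02, 2.79 and 3.07. The remaining pair was Lgals3 against Lgals3bp, with a log2 difference of 2.14 that missed the threshold (exact permutation p = 0.0857, also after adjustment). In this pair BCAS mouse 2, at -5.14, lay within the Sham values of -7.23 to -4.96, and the other 3 BCAS mice lay above them. Without BCAS mouse 2 the difference was 2.70 with an exact permutation adjusted p = 0.0286.

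Markers of several cell types moved along with the 5 genes. The summed level of 10 microglia markers was 385 to 462 CPM in Sham and 5471, 1502, 2687 and 2922 CPM in BCAS mice 1 to 4, and all 10 markers were called higher. Over all tested genes 11.0% were called higher and 1.28% lower, beside which the called counts of this and the next lists stand. Blood-borne leukocyte markers summed to 1.87 to 3.75 CPM in Sham and 157, 7.98, 94.4 and 26.3 CPM in BCAS, with 4 markers called higher and 7 too low to test. Of those 4, Ly6c2, Cd8a and Ccr2 passed the filter on low counts through their BCAS values, so they had to come out higher, which leaves Itgal. Border macrophage markers summed to 16.6 to 20.5 CPM in Sham and 30.6 to 90.9 CPM in BCAS (4 of 6 called, or 3 of 5 without Cbr2, which passed the filter through its BCAS values). Mural cell and fibroblast markers were at 259 to 302 CPM in Sham and 335 to 1191 CPM in BCAS (5 of 8 called), and astrocyte markers at 4591 to 5275 and 6144 to 9289 CPM (2 of 8 called). Precursors of oligodendrocytes were at 177 to 201 and 223 to 334 CPM (1 of 4 called). Endothelial (292 to 376 and 340.0 to 527 CPM) and oligodendrocyte markers (3859 to 6214 and 5404 to 8397 CPM) overlapped between the groups with 0 of 7 called in each. Neuronal markers summed to 9937 to 11341 CPM in Sham and 3968 to 8472 CPM in BCAS, with 1 of 9 called lower. At adjusted p under 0.05 alone (edgeR), 6 of 9 neuronal markers were lower, beside 12.8% of all tested genes. By the same rule 7 of 8 astrocyte, 6 of 8 mural cell and fibroblast and 2 of 4 oligodendrocyte precursor markers were higher. For endothelial markers it was 2 of 7 and for oligodendrocyte markers 0 of 7, beside 19.2% of all tested genes. In all of these sums but the neuronal one, BCAS mouse 1 was the highest and BCAS mouse 2 the lowest of the BCAS mice, as for the 5 genes, and in the neuronal sum the order of these mice was the reverse. No marker was at 0 in all libraries. Of these sums, only the microglia sum was set against the members directly; the part of the other cell types was not tested.

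**Figure D3:**
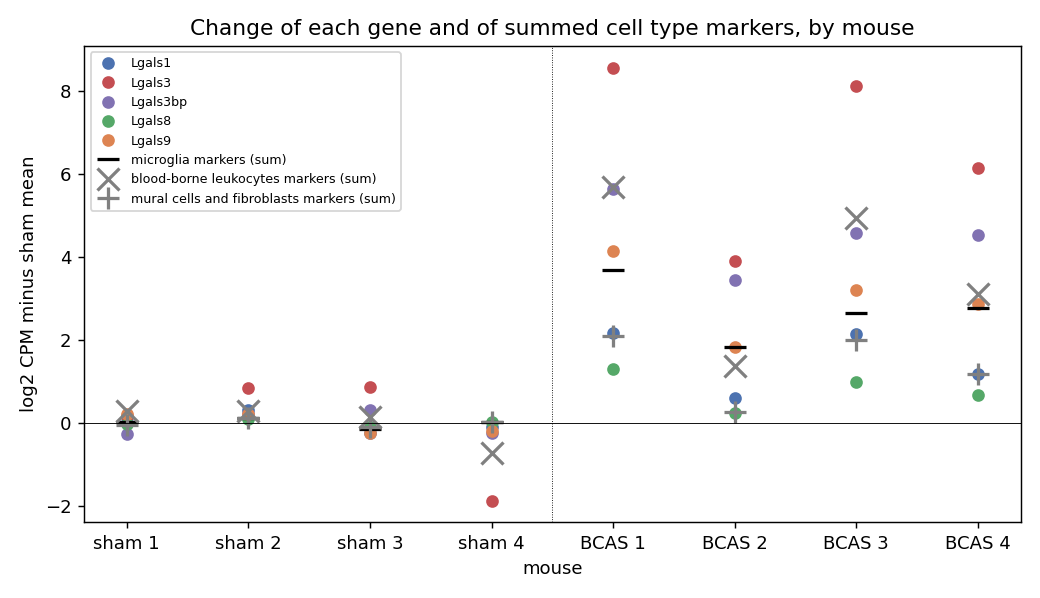
Log2 CPM of the 5 genes and of 3 summed marker lists, each minus its own Sham mean, for each mouse. Lgals3 reaches 8.55 in BCAS mouse 1 and 3.90 in BCAS mouse 2, while Lgals8 stays between 0.24 and 1.30 in BCAS mice.

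Set against the summed microglia markers, the 5 genes fell into different directions. The log2 ratio to this sum was higher in BCAS for Lgals3, by 3.94, and for Lgals3bp, by 1.8, in 4 of 4 mice each (exact two-sided permutation test, adjusted p = 0.0357 over 5 genes). The Lgals3 ratio rests on its few Sham counts and on a direction fixed by the filter. Adjusted over the other 4 genes, p was 0.0381 for Lgals1, Lgals3bp and Lgals8 (exact permutation test). For Lgals3bp the ratio was nearly the same in the BCAS mice, at -2.79, -3.11, -2.82 and -2.99. The ratio was lower in BCAS for Lgals1, with a difference of -1.21, and for Lgals8, with a difference of -1.93, in 4 of 4 mice each (adjusted p = 0.0357, exact permutation test). With any 1 Sham mouse left out, the adjusted p of these 4 ratios was 0.0714 (exact permutation test over 35 arrangements), while the differences stayed between 1.71 and 1.96 for Lgals3bp and between -1.95 and -1.91 for Lgals8, both with the smallest p that 35 arrangements allow (0.0286). For Lgals9 the difference was 0.28, with SDs of 0.18 in Sham and 0.26 in BCAS, and did not pass (exact permutation p = 0.171). It was 0.46 against the mean log2 CPM of the markers in place of their sum (exact permutation p = 0.0571). Lgals9 was the only one of the 5 whose ratio to the microglia markers overlapped between the groups. The marker genes may themselves change per cell, so the ratio is not a level per microglia.

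**Figure D4:**
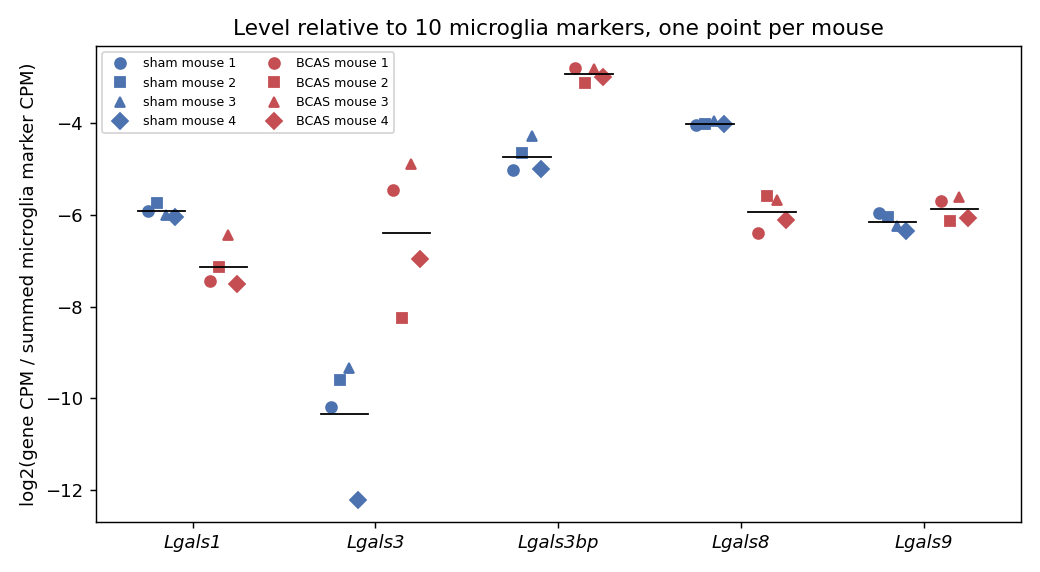
Log2 ratio of each gene's CPM to the summed CPM of 10 microglia markers, 1 point per mouse with a line at the group mean. The groups separate upward for Lgals3 and Lgals3bp, downward for Lgals1 and Lgals8, and overlap for Lgals9.

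For each gene, the 3 tested genes with the most similar profile were found among the 12438 genes whose mean count reached 100. Likeness was the root-mean-square difference in log2 CPM relative to the Sham mean over the 8 libraries. Nearest to Lgals3bp were Cd68 at 0.134, which encodes a lysosomal glycoprotein of macrophages, Ly86 at 0.204 and Tent5c at 0.225. Nearest to Lgals9 were A630001G21Rik at 0.0591, Wdfy4 at 0.0847 and Unc93b1 at 0.112, the last a chaperone of endosomal Toll-like receptors. Nearest to Lgals3 were complement C3 at 0.638, lipocalin Lcn2 at 0.834 and Ly9 at 0.907. These distances include the scatter of the few Lgals3 counts in Sham, from -1.87 to 0.86 around the Sham mean, and cannot be set against those of the other members. Nearest to Lgals1 were the collectin Colec12 at 0.0801, Dse at 0.142 and Txnip at 0.150. Nearest to Lgals8 were the phosphatase gene Ptpn1 at 0.0511, the actin-binding profilin Pfn1 at 0.0519 and Tpt1 at 0.0573. Among the members themselves other than Lgals3 the closest pair was Lgals1 and Lgals8 at 0.564 and the farthest was Lgals3bp and Lgals8 at 2.67. These values share the 8 libraries and describe likeness only.

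Of the other galectin genes 3 had enough counts to be tested, and none of these passed in the higher direction. Lgalsl, the galectin-related gene, was at 95.98, 95.3, 95.1 and 94.1 CPM in Sham and 59.0, 88.4, 75.6 and 68.3 CPM in BCAS. It was lower in each of the BCAS mice (log2 fold change -0.39, SE 0.12, edgeR adjusted p = 0.0344). Lgals4 (log2 fold change 0.76, edgeR adjusted p = 0.0661) and Lgals12 (0.21, adjusted p = 0.715) did not pass. Lgals2 had 0, 4, 0 and 0 counts in Sham and 9, 4, 2 and 7 in BCAS. Lgals7 had 3, 0, 1 and 0 counts in Sham and 3, 0, 0 and 2 in BCAS. Grifin, a lens galectin, had at most 5 counts in any library. These last 3 were too low to test.

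The glycoproteins that galectins are known to bind mostly rose. Of 25 such genes 20 were called higher and 0 lower, against the 11.0% and 1.28% of all tested genes, and their median log2 fold change was 2.21. The largest change was in Tlr2, a Toll-like receptor, with a log2 fold change of 5.48 (SE 0.50). The integrin subunit Itgb2 (4.43), the sialoglycoprotein Spn (4.37), the checkpoint receptor Lag3 (4.35) and the lipid receptor Trem2 (4.34) followed. Spn, with at most 8 counts in a Sham mouse, passed the filter on low counts through its BCAS values, so its direction was fixed, and its call was lost by limma-voom. Without it 19 of 24 genes were called higher and the median was 1.98. Trem2 stood at 11.8, 15.1, 10.5 and 11.7 CPM in Sham and at 409, 114, 220.0 and 249 CPM in BCAS mice 1 to 4, so BCAS mouse 2 was lowest here too. In the other direction, the transferrin receptor Tfrc (-0.68, edgeR adjusted p = 0.0074) and Cd47 (-0.30, adjusted p = 0.0167) were lower without reaching the fold threshold, and are named outside the rule, after their values were seen. Slc2a1, the glucose transporter GLUT1, had the most counts of those that did not pass (0.26, edgeR adjusted p = 0.150). Several of these partners are leukocyte or microglia genes, and the microglia sum above moves with them. The list was written with earlier results of these data known, so its count is a description only. Itgam, among the 20 called, shares 68.7% of its exon bases with the annotated Gm49368 on the same strand.

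Genes of endolysosomal damage and galectin-linked autophagy formed the next list. Of its 24 genes 4 were called higher and 0 lower, beside 11.0% and 1.28% of all tested genes. At adjusted p under 0.05 alone 9 of 24 passed, beside 32.0% of all tested genes, so both counts are near the background, and the median log2 fold change was -0.01. The 4 were the lysosomal protease genes Ctsd (4.06) and Ctsb (2.10), the lysosomal protein progranulin Grn (3.44) and Tfeb (1.06), a regulator of lysosomal genes. The groups overlapped in Tfeb (Sham up to 11.8 CPM, BCAS from 11.6 CPM), and its call was lost in 7 of the alternatives, among them limma on log2(CPM + 1) and leaving out Sham mouse 2, 3 or 4 or BCAS mouse 1 or 3. Ctsd shares 34.4% of its exon bases with the annotated Gm49369 on the same strand, and Ctsb 12.8% with Fdft1 on the other. The other 5 genes at adjusted p under 0.05 by edgeR were under the fold threshold and went both ways. Pdcd6ip, an ESCRT partner in membrane repair (0.35, adjusted p = 0.0412), and the autophagy receptor Optn (0.32, adjusted p = 0.0415) were higher. The autophagy genes Gabarapl2 (-0.25) and Ulk1 (-0.28) and the kinase gene Mtor (-0.28) were lower. All of these but Pdcd6ip were named after their values were seen. The autophagy receptor Sqstm1 stood at -0.22 (edgeR adjusted p = 0.0875).

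Among 19 enzymes that build or cap galectin ligands, 4 were called higher and 0 lower, beside 11.0% and 1.28% of all tested genes, with 11 not passing at adjusted p under 0.05 and a median log2 fold change of 0.16. Gcnt1, which branches core O-glycans, had a log2 fold change of 2.64 and the galactosyltransferase B4galt1 one of 2.40. The sialyltransferases St6gal1 (1.22) and St3gal6 (1.03) were also called higher, and St3gal6 shares 26.0% of its exon bases with Dcbld2 on the opposite strand. The call of St3gal6 was lost in 6 alternatives, among them limma-voom, the replicate block and leaving out Sham mouse 4 or BCAS mouse 1. St6gal2, another sialyltransferase, fell by 0.85 on the log2 scale (edgeR adjusted p = 0.0199). Mgat3 (-0.58, edgeR adjusted p = 0.027) and St3gal3 (-0.40, adjusted p = 0.0262) were also lower and Mgat4a (0.52, adjusted p = 0.00973) was higher, each of these named after its values were seen. St6gal2 and these 3 were under the fold threshold. Mgat5, which adds the branch that galectin-3 favours, was at -0.02 (edgeR adjusted p = 0.854), with 131 to 147 CPM in Sham and 126 to 150.0 CPM in BCAS.

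Lgals3bp carries a scavenger receptor cysteine-rich domain, so other genes of this domain family were examined. Of 14 such genes 9 had enough counts to be tested, and 6 of the 9 were called higher and 0 lower, beside 11.0% and 1.28% of all tested genes, with a median log2 fold change of 2.37. The list was written with Loxl1, which does not carry the domain, and without it 5 of 8 tested genes were called higher and the median was 2.28. The largest were Msr1, a macrophage scavenger receptor (5.10), the lymphocyte gene Cd5 (3.94), the lysyl oxidase-like gene Loxl2 (3.25), the ferritin receptor Scara5 (2.94) and, outside the family, Loxl1 (2.37). Levels were low, with Msr1 at 0.121 to 0.499 CPM in Sham and 26.2, 0.721, 15.1 and 5.29 CPM in BCAS mice 1 to 4. Msr1, Cd5, Loxl2 and Scara5 passed the filter on low counts through their BCAS values, so they had to be higher there. Without these 4, 2 of 5 tested genes were called higher, Loxl3 and Loxl1, and the median was 0.84. The same 5 tested and 2 called were found with at least 10 counts required in every library. In the whole list limma-voom called 3, losing Msr1, Loxl2 and Scara5, and a filter of at least 1 count gave 8 higher. The Scara5 call was also lost without Sham mouse 1, 2 or 4. Leaving out Sham mouse 3 gave 7 higher and 1 lower, and leaving out BCAS mouse 2 gave 8 higher and 1 lower, the lower one being Prss12. With all mice Prss12 had a log2 fold change of -0.85 that did not pass (edgeR adjusted p = 0.0515). Cd5l, a soluble macrophage protein of the family, was chosen after its values were seen: it had 2, 0, 0 and 0 counts in Sham and 1955, 6, 960 and 247 in BCAS mice 1 to 4, and it was not tested because too few libraries reached the filter. With the filter of at least 1 count it was called higher.

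**Figure D5:**
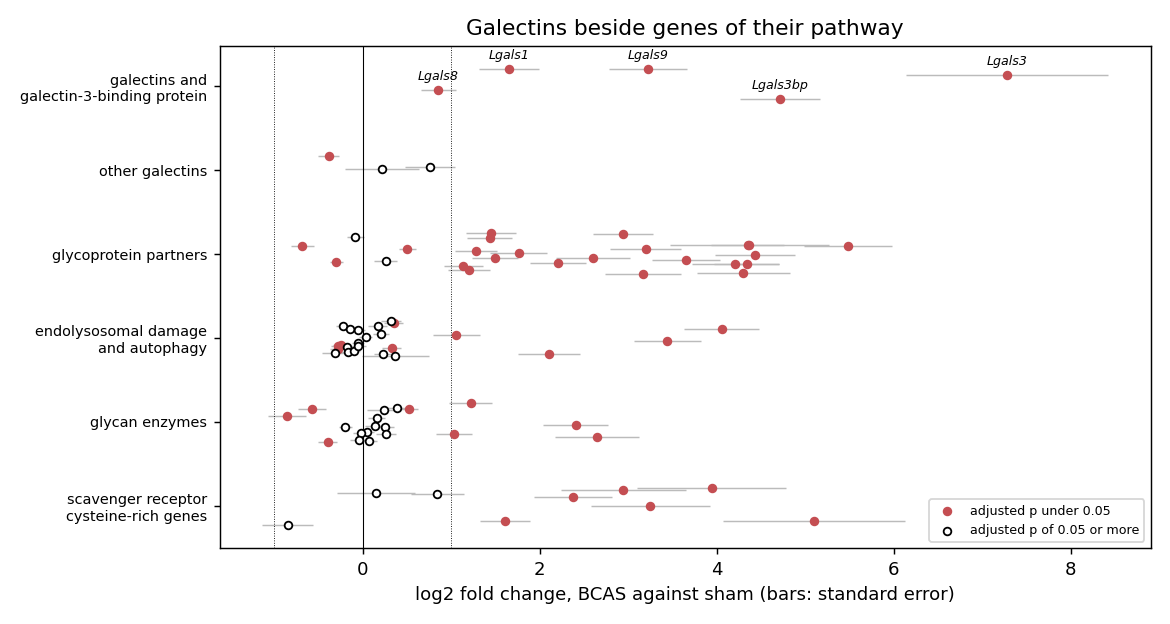
Log2 fold change of BCAS against Sham with its standard error for the 5 genes and for each tested gene of 5 related lists (Loxl1 is drawn with the scavenger receptor cysteine-rich genes); filled points have an edgeR adjusted p under 0.05 and dotted lines mark the fold threshold. Partners of galectins lie mostly to the right, with a median of 2.21, while the endolysosomal genes centre on -0.01.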

How the data were processed

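Right cortex of 4 Sham and 4 BCAS mice was sequenced as paired reads. The authors trimmed reads with Trim Galore, aligned them to mm10 with HISAT2 and sorted them with SAMtools 1.9. They deposited raw counts per gene, 1 table per mouse. The file header names featureCounts 2.0.1 with GENCODE vM20 and no strand option, whereas the submitters' processing notes name featureCounts 1.6.3. Columns of other samples: none.

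Of 54752 gene IDs, 54723 were named from GENCODE vM21, 53861 with the same version. Totals were 16759364 to 21794435 counts. The counts were analysed with edgeR 4.0.16 (TMM, filterByExpr with a minimum count of 10 and total of 15, quasi-likelihood test, Benjamini-Hochberg). The edgeR p-values weigh the difference between the groups against the spread between the mice of a group, moderated over all genes. Alternatives used limma 3.58.1, DESeq2 1.42.0, other scalings and filters, each library left out, and a replicate block. Ratios per mouse used a prior count of 0.5 on the log2 scale and exact permutation tests over 70 arrangements. TPM was computed from the counts and the tables' gene lengths. The fitting code was tested on simulated data.

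Members and lists were chosen with earlier results of these data known. Named were the members, in each list up to 5 genes with the largest change at adjusted p under 0.05 and the most counted gene not passing, every other galectin, and 3 genes most like each member.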

Additional observations from a re-analysis of the deposited data

How the results depend on the processing

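Over the alternatives in scaling, filter, test, block and left-out mice, no result reversed. Lgals1, Lgals3bp and Lgals9 were called under all 18 alternatives. Lgals3 kept its call in 16 of 17: limma-voom gave 6.69 (adjusted p = 0.119), and with at least 10 counts in every library it could not be tested. Leaving out 1 mouse at a time gave 1.45 to 1.9 for Lgals1, 6.68 to 7.68 for Lgals3, 4.25 to 4.99 for Lgals3bp, 0.68 to 1.02 for Lgals8 (called only without BCAS mouse 2) and 2.75 to 3.51 for Lgals9 (log2 fold changes). Genes called lower, 220 with all mice, numbered 145 by limma on log2(CPM + 1), 340 by limma-voom with quality weights and 86 to 559 with 1 mouse left out; genes called in all numbered 1644 to 2967 with 1 mouse left out and 5490 at adjusted p under 0.05 alone. Scavenger receptor cysteine-rich genes called numbered 2 of 5 tested with 10 counts in every library, 3 by limma-voom, 8 with at least 1 count, 5 to 9 with 1 mouse left out and 5 with Loxl1 left out of the list, an alternative chosen after seeing the data. Called endolysosomal genes numbered 3 or 4 and glycan enzymes 3 to 5.

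Leaving out 1 mouse of either group in turn, the log2 difference ranged from 0.57 to 0.84 for Lgals1 over Lgals8, from 3.10 to 4.20 for Lgals3 over Lgals9 and from 1.6 to 2.70 for Lgals3 over Lgals3bp. Set against the microglia markers it ranged from -1.44 to -1.08 for Lgals1, 3.31 to 4.56 for Lgals3, 1.71 to 1.96 for Lgals3bp and -2.05 to -1.78 for Lgals8. Calls were lost only with a Sham mouse left out. This was so for Lgals1 over Lgals8 with any of them (0.67 to 0.79, adjusted p = 0.0635), for Lgals3 over Lgals9 with Sham mouse 1 (3.65) or 4 (3.10, both adjusted p = 0.0635), and for the 4 microglia ratios with any of them (adjusted p = 0.0714, exact permutation tests, with the raw p of Lgals3bp and Lgals8 at its smallest, 0.0286). In these cases the raw p was 0.0571 for Lgals1 over Lgals8, Lgals3 over Lgals9 and the Lgals1 and Lgals3 microglia ratios (exact permutation tests). The smallest possible p was the same, 0.0286, with 35 arrangements as with 70. Lgals3 over Lgals3bp passed only without BCAS mouse 2.

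Groups share replicate numbers, but deviations of same-numbered mice correlated at -0.05, -0.10, -0.01 and 0.00, so the numbers were not taken as pairing. With the replicate block the log2 fold changes were 1.54 for Lgals1, 7.03 for Lgals3, 4.53 for Lgals3bp, 0.80 for Lgals8 and 3.03 for Lgals9, with 1809 genes called and no change of call among the members. Depth limited Lgals3 in Sham, where Sham mouse 4 had 1 count.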
